A study of Homo sapiens with 12 samples.

Results

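The 40 genes described here are genes of the interferon response and of class I antigen presentation, and their newly made RNA was followed in U2OS-MycER cells with and without an active MycER and with a control shRNA or an shRNA against CDK12. They were chosen by name from the 23434 genes of the count table, by Entrez gene identifier matched to a gene symbol. All 40 were found: 6 transcription factors, 9 sensors and enzymes of double-stranded RNA, 16 antiviral effectors, 3 genes of the PARP9 and DTX3L group, and 6 genes of class I antigen presentation.

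U2OS is a human osteosarcoma cell line, and MycER is Myc fused to a hormone-binding domain that 4-hydroxytamoxifen (OHT) activates. The 12 libraries fell into 4 groups of 3: shNT (non-targeting shRNA, no OHT), shNT with OHT, shCDK12 (shRNA against the kinase CDK12, no OHT) and shCDK12 with OHT. Every group carried MycER and a doxycycline-induced shRNA (1 µg/mL), was arrested in mitosis with 100 ng/mL nocodazole for 8 h, collected by shake-off and released for 12 h; OHT was given at 300 nM for 40 h. In the last 2 h 5-ethynyl-uridine (EU, 0.5 mM) was incorporated into new RNA, and EU-labelled RNA was captured and sequenced (EU-seq) out of 40 µg from the human cells to which 10 µg from mouse cells had been added. The labels give neither the shRNA sequences nor whether the cells were a clone or the replicates separate cultures, so the p-values measure the spread between these libraries, which may be technical.

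Library totals ran from 1251695 to 10447836 counts, with shNT (1928373 to 5227279) and shNT with OHT (1251695 to 3666406) the shallowest groups. Values are CPM, counts scaled to an equal library total, adjusted by TMM, a normalization that takes most genes as equal between libraries, so that a change in the total amount of new RNA is not seen, and in bulk samples fewer transcribing cells and less RNA per cell cannot be told apart. A gene was tested where its mean normalized count over the libraries of the fit was above 32, and was called higher or lower at an adjusted p under 0.05 in the quasi-likelihood test of edgeR with Benjamini-Hochberg adjustment over all genes tested. CDK12 itself stood at 323, 289 and 300.2 CPM in the shNT libraries (replicates 1 to 3, in that order throughout), 434, 356 and 400.5 in shNT with OHT, 293, 277 and 298 in the libraries labelled shCDK12 and 215, 208 and 218 in the shCDK12-labelled libraries with OHT. It was thus not called lower in the libraries labelled shCDK12 against shNT (log2 fold change -0.08 ± 0.08 SE, adjusted p = 0.447). Against shNT it was lower in the shCDK12-labelled libraries with OHT (-0.51 ± 0.07, adjusted p = 7.69e-07), and it rose with OHT in shNT (0.38 ± 0.12, adjusted p = 0.0352). EU-seq reads newly made RNA and not the amount of CDK12 RNA or protein in the cells. These values therefore cannot show whether the knockdown worked, which was not tested. Directions that involve these libraries are given as labelled. Whether the labels with and without OHT were exchanged between the shCDK12 groups was not tested. Such an exchange would turn the sign of each response to OHT in these libraries and change the interaction. Below, CPM with ± are mean and SD over 3 libraries, and log2 fold changes with ± carry their standard error (SE). New RNA counted as MYC was at 2093 ± 112 CPM in shNT and 1967 ± 248 with OHT. It was at 1124 ± 89.8 CPM in the libraries labelled shCDK12 and 2062 ± 53.5 in those with OHT. MYC was called lower in the libraries labelled shCDK12 than in shNT (-0.90 ± 0.08, adjusted p = 1.80e-10). How many of its reads came from MycER was not tested.

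Of 11 mesenchymal and osteoblast markers, VIM, COL1A1, RUNX2, SPARC, FN1 and CD44 were at 38.2 CPM or more in every group mean, ALPL lay between 2.95 and 6.49 CPM, and COL1A2, TWIST1, SP7 and BGLAP were at or near 0. The summed level of these 11 markers was 1764 to 1843 CPM in shNT, 1234 to 1350.0 in shNT with OHT, 524 to 533 in the libraries labelled shCDK12 and 734 to 753 in the shCDK12-labelled libraries with OHT. The first 6 markers named were all called lower in the libraries labelled shCDK12 than in shNT. Leukocyte markers (8 genes) summed to between 3.05 and 11.1 CPM, with PTPRC at a group mean of 0 to 0.459 CPM. Of these 8, ITGAM stood at 0.764 ± 0.215 CPM in shNT, 0.782 ± 0.184 with OHT, 4.73 ± 1.35 in the libraries labelled shCDK12 and 4.69 ± 0.573 in the shCDK12-labelled libraries with OHT. Epithelial markers (4 genes) summed to between 9.90 and 15.7 CPM, and among them EPCAM stood at 0.820 ± 0.884, 1.58 ± 0.965, 8.03 ± 1.45 and 2.64 ± 0.255 CPM in the same order of groups. The part of these shifts in the results below was not tested.

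Interferons signal through JAK kinases to a complex with STAT2 and IRF9, which binds the interferon-stimulated response element (ISRE) in promoters and switches on antiviral genes. Cells also make interferon after RNA sensors such as RIG-I and MDA5 or DNA sensors are engaged, and many of the induced genes are sensors themselves. Among the targets are the heavy chains of class I molecules, B2M, and the TAP peptide transporter, which carry peptides to the cell surface for T cells to read.

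The promoter letters of members that the results turn on are shown first, because the ISRE is the element through which these genes are known to respond. RefSeq promoter windows (GRCh38.p14, from 250 bases before to 50 bases after the start) were at hand for 32 of the 40 members, and were searched on both strands for the ISRE core GAAANNGAAA. It was present in 22 of these 32 windows (68.75%) against 516 of all 16493 windows (3.129%). Each stretch below is written 5′ to 3′ on the gene's own strand, with the ISRE core or its reverse complement in capitals.
PARP14: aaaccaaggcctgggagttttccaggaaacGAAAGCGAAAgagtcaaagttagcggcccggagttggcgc
DTX3L: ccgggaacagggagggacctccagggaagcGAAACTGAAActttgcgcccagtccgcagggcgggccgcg
TAP1: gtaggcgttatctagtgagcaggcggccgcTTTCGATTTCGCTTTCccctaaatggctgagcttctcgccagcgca
TAP2: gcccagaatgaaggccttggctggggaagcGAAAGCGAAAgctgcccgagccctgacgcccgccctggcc
B2M: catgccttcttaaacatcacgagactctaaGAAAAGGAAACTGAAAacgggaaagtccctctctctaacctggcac
TRIM21: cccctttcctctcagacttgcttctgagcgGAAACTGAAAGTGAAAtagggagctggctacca
IFIT1: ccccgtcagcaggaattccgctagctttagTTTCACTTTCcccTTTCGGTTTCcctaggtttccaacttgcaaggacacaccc
IFIT5: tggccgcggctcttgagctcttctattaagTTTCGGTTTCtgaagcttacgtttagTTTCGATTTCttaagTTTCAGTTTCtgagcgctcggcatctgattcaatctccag
ISG15: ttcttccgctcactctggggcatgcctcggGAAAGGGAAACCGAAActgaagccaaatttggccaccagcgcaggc

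PARP14 (at chr3:122680780-122680849, plus strand) and DTX3L (chr3:122564302-122564371, plus strand) each held 1 match close to the start, and TRIM21 (chr11:4393653-4393715, minus strand) held 2 overlapping matches just after it. TAP1 (chr6:32853793-32853868, minus strand), B2M (chr15:44711343-44711418, plus strand) and ISG15 (chr1:1013354-1013429, plus strand) held 2 overlapping matches each further upstream, and TAP2 (chr6:32838758-32838827, minus strand) held 1. IFIT1 (chr10:89392477-89392559, plus strand) held 2 and IFIT5 (chr10:89414493-89414603, plus strand) held 3. These coordinates belong to GRCh38.p14, while the counts were made on hg19 and were joined by gene identifier. The letters were not found in the windows of HLA-B, HLA-C, STAT2, IRF1, PARP9, RIGI, IFI35, ADAR, OAS1 and IRF9. Only these exact letters within the windows were searched, so looser forms of the element or sites elsewhere would be missed. The GAS letters TTCNNNGAA were in 8 of the 32 windows (25.0%) against 7.039% of all, among them IRF1 and PARP14. The Myc E-box CACGTG was in 4 of 32 (12.5%) against 8.804% of all, in ADAR, EIF2AK2, IRF9 and ISG20. Overlaps between the 3 motifs were not removed.

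**Figure D1:**
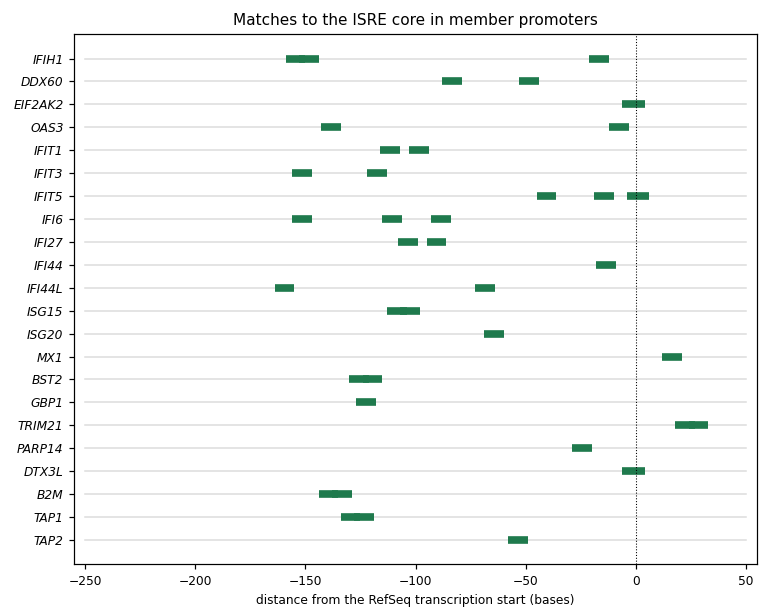
Position of each match to the ISRE core (green bars) within the promoter windows of the 22 members that hold one. The horizontal axis is the distance in bases from the RefSeq transcription start (dotted line), and most matches lie upstream of it.

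Across the comparisons 26 of the 40 members passed the count filter in at least 1 fit, 18 of them in all 6, and 24 of the 26 were called at least once. In the libraries labelled shCDK12 against shNT alone, 29.6% of all genes were called higher and 32.4% lower. The share of all genes called at least once was not computed. IRF3 and IFI6 were tested and never called. Of the 70 calls 7 had a mean normalized count at or under 32 in a group, so that the gene passed the filter through the groups where it was higher: ISG20 by the label without OHT, IFIT2 with OHT in the libraries labelled shCDK12, IFIT1 between both groups with OHT, IFIH1 and IFIT1 in the libraries labelled shCDK12 with OHT against shNT, and OAS3 and IFI35 in the interaction. The counts of members below include them. The 5 pairwise comparisons share groups with each other, so their counts are not independent.

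With OHT in shNT, 18 members were tested, 2 were called higher and 3 lower (11.1% and 16.7%). Over all 10272 genes tested 9.05% were called higher and 8.29% lower. The median log2 fold change of the 18 was -0.09, and -0.03 over all genes. The median of the members depended on single libraries: it was -0.33 without shNT_OHT replicate 1, -0.13 without shNT_OHT replicate 3 or shNT replicate 3, 0.01 without shNT_OHT replicate 2 and 0.03 at equal depth. Without shNT replicate 1, 3 members were called.

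In the libraries labelled shCDK12 against shNT, 4 of 21 tested members were called higher and 9 lower, 19.0% and 42.9% of those tested, where 29.6% of all genes were called higher and 32.4% lower. The median of the 21 was -0.39 and that of all genes -0.03, and the members' median was -0.26 without shNT replicate 2 and -0.22 at equal depth. With upper-quartile scaling the balance over all genes turned, from 3465 called higher and 3800 lower to 3963 and 3282.

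With OHT in the libraries labelled shCDK12 the balance lay the other way. Here 13 of 26 tested members were called higher (50.0%) and 2 lower (7.69%), where 27.5% of all genes were called higher and 21.5% lower, and the medians were 0.29 for members and 0.05 for all genes. At equal depth the members' median was 0.11. Upper-quartile scaling turned the balance over all genes here too, from 3442 called higher and 2686 lower to 2957 and 3226.

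Between the libraries labelled shCDK12 with OHT and shNT with OHT, 7 of 23 tested members were called higher and 3 lower (all genes: 23.8% higher, 21.6% lower), with medians of 0.27 and 0.05. Between the libraries labelled shCDK12 with OHT and shNT without OHT, 8 of 22 were called higher and 6 lower (all genes: 28.4% and 27.3%), with medians of -0.03 and 0.01. The members' shares were 30.4% higher and 13.0% lower in the first and 36.4% and 27.3% in the second. Upper-quartile scaling gave 2502 higher and 2770 lower over all genes in the first (2776 and 2522 otherwise). At equal depth the members' medians were 0.17 in the first and -0.15 in the second, and the second ranged from -0.08 to 0.15 with a library left out (0.15 without shNT replicate 1 or 3, 0.08 without shNT replicate 2, 0.01, -0.08 and 0.11 without shCDK12_OHT replicate 1, 2 and 3). In every pairwise call of a member the libraries of the groups did not overlap. The share without overlap among all called genes was not computed, so this is a description.

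**Figure D2:**
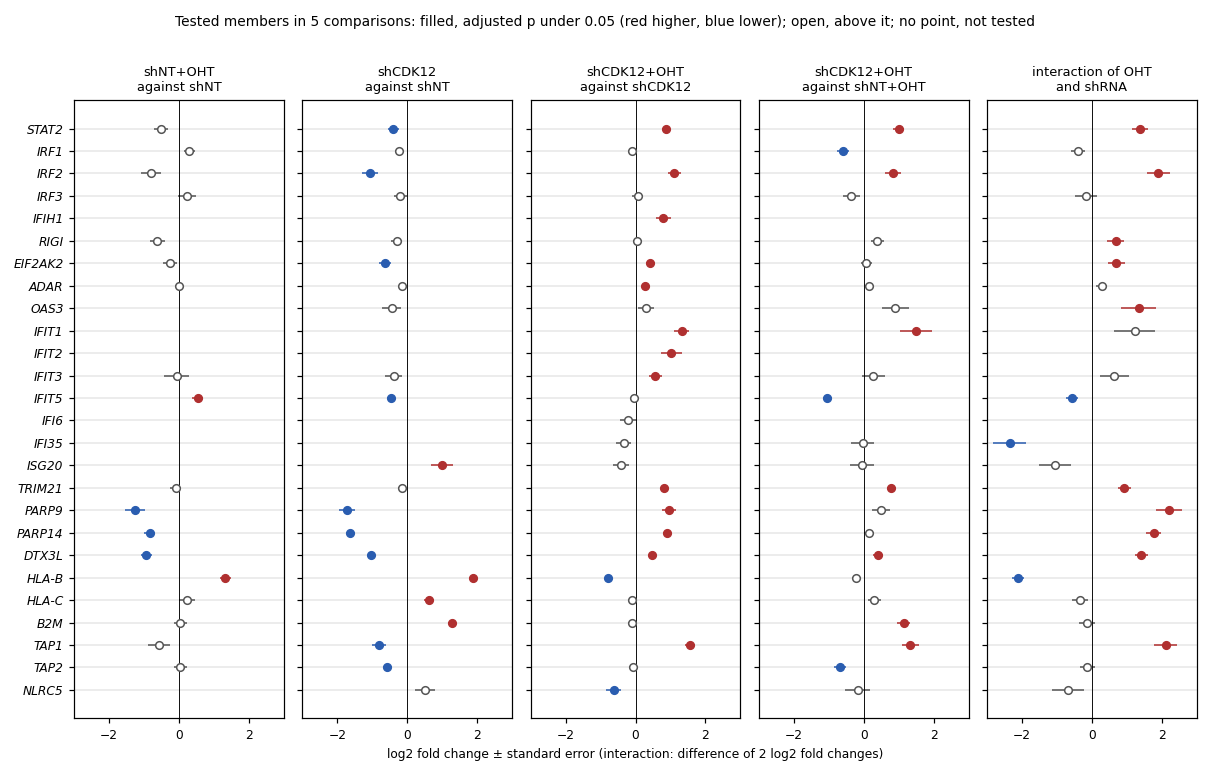
Log2 fold change with its standard error for each of the 26 tested members (rows) in 4 pairwise comparisons and in the interaction of OHT and shRNA (columns). Filled points passed an adjusted p of 0.05 (red higher, blue lower) and open points did not; PARP9, PARP14 and DTX3L are blue in the first 2 columns and red in the third and in the interaction.

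The 3 genes of the PARP9 and DTX3L group were all called, in the same direction as each other, in 5 of the 6 comparisons. How many of all genes were called as often was not computed. PARP9, of the ADP-ribosyltransferase family, pairs with the E3 ubiquitin ligase DTX3L, PARP14 adds single ADP-ribose units to proteins, and all are interferon-stimulated. PARP14 stood at 134, 133 and 117 CPM in the shNT libraries, 62.3, 88.3 and 68.1 with OHT, 34.5, 40.0 and 49.4 in those labelled shCDK12 and 78.2, 77.1 and 78.7 in the shCDK12-labelled libraries with OHT. All 3 shNT libraries lay above every other library, and the libraries labelled shCDK12 lay below every other. PARP14 was lower with OHT in shNT (log2 fold change -0.84 ± 0.16, adjusted p = 0.00284) and lower in the libraries labelled shCDK12 than in shNT (-1.63 ± 0.13, adjusted p = 3.93e-11), a 3.10-fold difference. Within the libraries labelled shCDK12 it rose with OHT (0.91 ± 0.12, adjusted p = 4.80e-06), to a level still below shNT (-0.72 ± 0.08, adjusted p = 8.95e-09).

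DTX3L was at 159, 158 and 129 CPM in shNT, 64.9, 87.4 and 84.1 in shNT with OHT, 71.6, 69.3 and 80.1 in the libraries labelled shCDK12 and 104, 108 and 92.9 in the shCDK12-labelled libraries with OHT. It followed the same order, highest in shNT, with shNT with OHT and the libraries labelled shCDK12 overlapping. It fell with OHT in shNT (-0.94 ± 0.16, adjusted p = 0.00132) and in the libraries labelled shCDK12 against shNT (-1.03 ± 0.11, adjusted p = 7.67e-09). It rose with OHT in the libraries labelled shCDK12 (0.47 ± 0.10, adjusted p = 5.53e-04). Its call between both groups with OHT (0.40 ± 0.14, adjusted p = 0.0417) was lost in 9 alternatives, with log2 fold changes of 0.26 to 0.46: DESeq2, upper-quartile scaling, the replicate block, equal depth, and leaving out any library but shNT_OHT replicate 2.

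PARP9 was at 40.8, 29.3 and 31.6 CPM in shNT, 14.1, 20.6 and 10.4 with OHT, 10.4, 7.14 and 13.9 in the libraries labelled shCDK12 and 20.8, 19.8 and 18.1 in the shCDK12-labelled libraries with OHT. Its shNT libraries again lay above all others. PARP9 was 3.33-fold lower in the libraries labelled shCDK12 than in shNT (-1.74 ± 0.23, adjusted p = 4.09e-07) and rose 1.93-fold with OHT in them (0.95 ± 0.20, adjusted p = 7.95e-04). Its fall with OHT in shNT (-1.25 ± 0.28, adjusted p = 0.00796) was not called without shNT replicate 1, where the log2 fold change was -1.08. PARP9 and DTX3L are neighbours whose annotated spans overlap, and the strand setting of the counting is not given, so reads from one may be counted for the other.

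**Figure D3:**
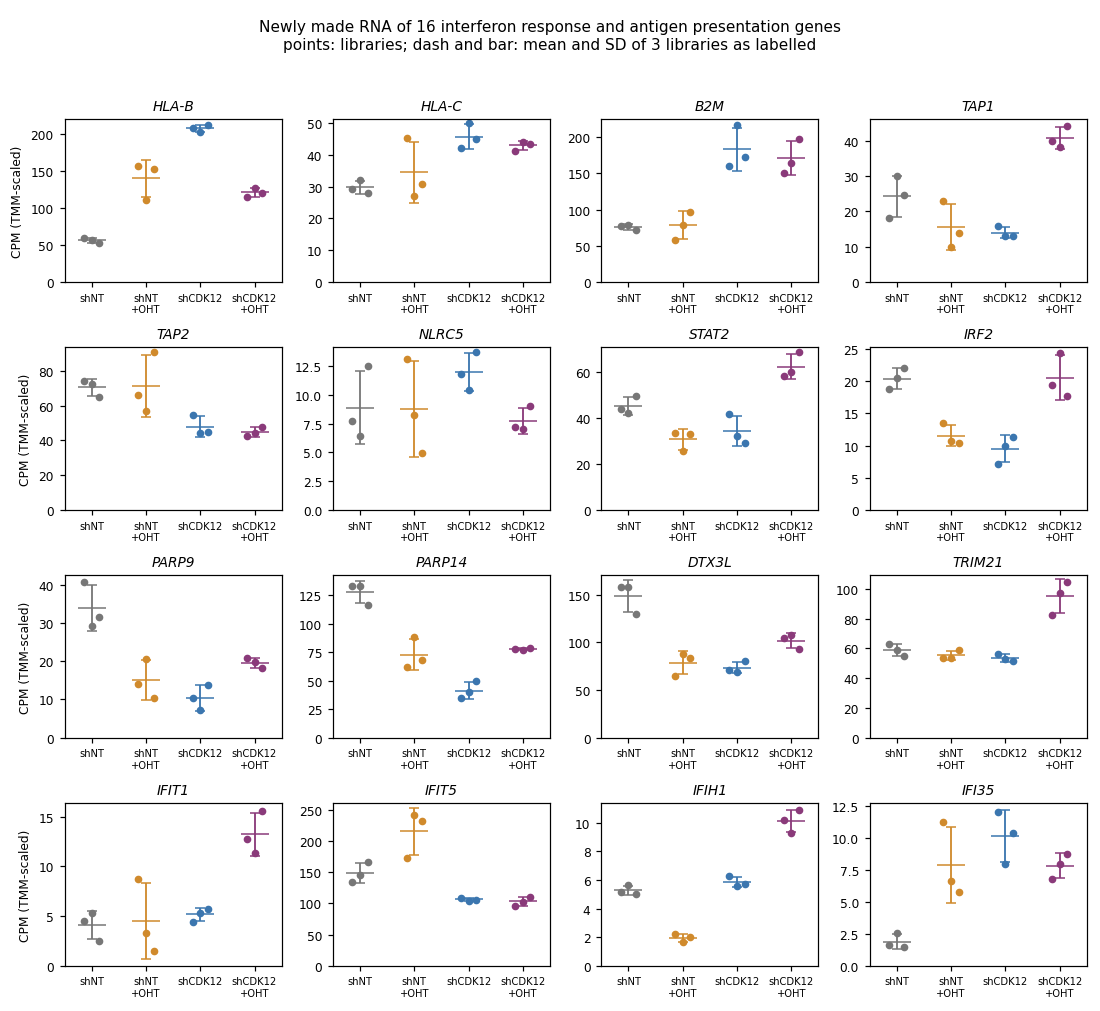
Level in CPM (TMM-scaled, linear axis from 0) of 16 members in each of the 12 libraries; points are libraries, and the dash and bar are the mean and SD of 3 libraries as labelled. PARP9, PARP14 and DTX3L are highest in shNT, HLA-B lowest there, and TAP1, TRIM21 and IFIT1 highest in the libraries labelled shCDK12 with OHT.

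In the libraries labelled shCDK12 against shNT the class I chains HLA-B, HLA-C and B2M were called higher and the transporter subunits TAP1 and TAP2 lower. HLA-B, a class I heavy chain, was at 59.0, 57.0 and 52.6 CPM in shNT, 156, 111 and 153 in shNT with OHT, 208, 203 and 212 in the libraries labelled shCDK12 and 115, 128 and 120.3 in the shCDK12-labelled libraries with OHT. The shNT libraries were the lowest and those labelled shCDK12 the highest, without overlap with any other group. HLA-B rose 2.51-fold with OHT in shNT (1.33 ± 0.16, adjusted p = 1.18e-04) and was 3.67-fold higher in the libraries labelled shCDK12 than in shNT (1.88 ± 0.10, adjusted p = 2.98e-14). With OHT in the libraries labelled shCDK12 it fell 1.71-fold (-0.78 ± 0.08, adjusted p = 3.76e-07), and the groups with OHT did not differ past the threshold (-0.21 ± 0.14, adjusted p = 0.247). These 3 calls kept their direction and their side of the threshold in every alternative.

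B2M, the light chain that every class I molecule needs, was at 77.5, 78.7 and 71.2 CPM in shNT and 58.6, 79.2 and 97.1 with OHT, and at 160.5, 217 and 173 in the libraries labelled shCDK12 and 151, 165 and 197 in the shCDK12-labelled libraries with OHT. All 6 libraries labelled shCDK12, with or without OHT, lay above all 6 of shNT. B2M was 2.42-fold higher without OHT (1.27 ± 0.11, adjusted p = 4.62e-10) and 2.21-fold higher with it (1.15 ± 0.18, adjusted p = 5.63e-04), and OHT gave 0.04 ± 0.18 in shNT and -0.11 ± 0.11 in the libraries labelled shCDK12, neither called. HLA-C, another heavy chain, was higher in the libraries labelled shCDK12 than in shNT (45.9 ± 3.88 against 29.9 ± 2.13 CPM; 0.62 ± 0.15, adjusted p = 8.74e-04). It was at 34.6 ± 9.60 CPM in shNT with OHT and 43.1 ± 1.45 in the shCDK12-labelled libraries with OHT. HLA-B and HLA-C share near-identical stretches, so their split of reads is uncertain.

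TAP1 and TAP2 form the peptide transporter. TAP1 was at 18.3, 30.1 and 24.6 CPM in shNT, 22.9, 9.90 and 13.9 with OHT, 15.7, 13.1 and 13.1 in the libraries labelled shCDK12 and 39.9, 38.3 and 44.4 in the shCDK12-labelled libraries with OHT. The last group stood above every other library. TAP1 was lower in the libraries labelled shCDK12 than in shNT (-0.81 ± 0.21, adjusted p = 0.00203), rose 2.94-fold with OHT in them (1.56 ± 0.14, adjusted p = 1.01e-07) and was 2.51-fold higher than in shNT with OHT (1.33 ± 0.25, adjusted p = 0.00141). TAP1 and HLA-B thus moved in opposite directions with OHT in these libraries. TAP2 was at 70.7 ± 4.94 CPM in shNT, 71.6 ± 17.8 with OHT, 48.1 ± 5.92 in the libraries labelled shCDK12 and 45.1 ± 2.81 in the shCDK12-labelled libraries with OHT, and was called lower by the label both without OHT (-0.58 ± 0.13, adjusted p = 5.02e-04) and with it (-0.68 ± 0.17, adjusted p = 0.00801). NLRC5, the transactivator of class I genes, was at 11.8, 10.4 and 13.7 CPM in the libraries labelled shCDK12 and 7.20, 7.04 and 9.07 in those with OHT. It was called lower with OHT (-0.63 ± 0.20, adjusted p = 0.0166), a call lost without shCDK12 replicate 3, without shCDK12_OHT replicate 1 or 2 and in a fit of all 12 libraries (-0.75 to -0.52 over the alternatives). In shNT it was at 8.90 ± 3.21 CPM and with OHT at 8.78 ± 4.14. A further gene, PSMB8-AS1, overlaps TAP1 in annotation and passed the count filter in no fit.

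Of the 6 transcription factors STAT2, IRF2 and IRF1 were called in at least 1 comparison and IRF3 in none. STAT2, the partner of IRF9 in the ISRE-binding complex, was at 43.8, 42.4 and 49.6 CPM in shNT, 33.5, 25.6 and 33.1 with OHT, 41.9, 32.1 and 29.1 in the libraries labelled shCDK12 and 58.4, 60.1 and 68.7 in the shCDK12-labelled libraries with OHT. Its highest 3 libraries were those labelled shCDK12 with OHT, all above the rest. STAT2 rose with OHT in the libraries labelled shCDK12 (0.87 ± 0.13, adjusted p = 2.27e-05) and was 2.01-fold higher than in shNT with OHT (1.01 ± 0.16, adjusted p = 5.23e-04). Its lower level in the libraries labelled shCDK12 against shNT (-0.40 ± 0.16, adjusted p = 0.0338) was lost with DESeq2, with upper-quartile scaling, at equal depth and without any library but shCDK12 replicate 1 (log2 fold change -0.55 to -0.29).

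IRF2, which competes with IRF1 for the same promoter elements, was at 18.7, 20.5 and 22.1 CPM in shNT, 13.5, 10.7 and 10.4 with OHT, 7.18, 9.97 and 11.3 in the libraries labelled shCDK12 and 19.4, 24.4 and 17.8 in the shCDK12-labelled libraries with OHT. The first and last groups overlapped, and both lay above the other 2. IRF2 was 2.11-fold lower in the libraries labelled shCDK12 than in shNT (-1.08 ± 0.23, adjusted p = 2.58e-04) and 2.16-fold higher with OHT in them (1.11 ± 0.19, adjusted p = 9.10e-05). Between both groups with OHT it was higher by a log2 fold change of 0.84 ± 0.23, adjusted p = 0.0122, a call lost without shNT_OHT replicate 3 or shCDK12_OHT replicate 2 (0.70 to 0.98). IRF1, an early activator of class I and interferon genes, was lower in the libraries labelled shCDK12 with OHT than in shNT with OHT (82.0 ± 6.59 against 124 ± 30.2 CPM; -0.60 ± 0.17, adjusted p = 0.0134) and than in shNT (102 ± 8.87 CPM; -0.32 ± 0.09, adjusted p = 0.00275). The first of these was lost without shCDK12_OHT replicate 1 or 3 (-0.76 to -0.42 over the alternatives). IRF3, which is activated by phosphorylation after sensing, lay between 22.2 and 29.4 CPM in all group means. It overlaps BCL2L12 in annotation, which was called higher with OHT in shNT (0.97 ± 0.25) and in the libraries labelled shCDK12 against shNT (0.96 ± 0.19), and lower with OHT in the libraries labelled shCDK12 (-0.52 ± 0.14).

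Of the 9 sensors and enzymes of double-stranded RNA, 5 passed the filter for OHT in the libraries labelled shCDK12 and 3 of them were called higher, where 27.5% of all genes were; the calls of EIF2AK2 and ADAR were each lost in alternatives given with them. EIF2AK2, the kinase PKR that halts translation, was lower in the libraries labelled shCDK12 (36.3 ± 7.70 CPM) than in shNT (57.6 ± 9.83 CPM; -0.63 ± 0.16, adjusted p = 0.00176) and rose with OHT in them to 49.7 ± 3.00 CPM (0.42 ± 0.13, adjusted p = 0.014). That rise was lost without shCDK12_OHT replicate 3 (0.30 to 0.70 over the alternatives). GPATCH11, whose annotated span overlaps it, was called in no comparison. ADAR, which edits double-stranded RNA, lay at group means of 325 to 395 CPM and rose by a log2 fold change of 0.29 ± 0.09, adjusted p = 0.0124 with OHT in the libraries labelled shCDK12. That call was lost with upper-quartile scaling and without shCDK12 replicate 3 or shCDK12_OHT replicate 3 (0.19 to 0.39). IFIH1, the sensor MDA5, had 5.15, 5.66 and 5.01 CPM in shNT, 2.19, 1.65 and 2.03 with OHT, 6.25, 5.56 and 5.74 in the libraries labelled shCDK12 and 10.2, 9.32 and 10.9 in the shCDK12-labelled libraries with OHT. The last group lay above all other libraries and shNT with OHT below them. IFIH1 passed the filter in 2 fits, and was higher with OHT in the libraries labelled shCDK12 (0.79 ± 0.21, adjusted p = 0.00454) and higher there than in shNT (0.92 ± 0.26, adjusted p = 0.00315). It entered the fit against shNT through the group with OHT (mean normalized count 30.6 in shNT), so that value is given as a description. RIGI, the sensor RIG-I, and OAS3, an oligoadenylate synthetase, were called in no pairwise comparison. RIGI was at 40.5, 40.4 and 30.6 CPM in shNT and 22.6, 27.2 and 24.4 with OHT, and OAS3 at 12.9, 12.1 and 9.52 and 2.19, 6.60 and 8.70. In the libraries labelled shCDK12 they stood at 30.8 ± 2.50 and 8.40 ± 2.90 CPM, and with OHT at 31.5 ± 3.14 and 10.6 ± 0.877.

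Among the antiviral effectors TRIM21 and IFIT1 were highest in the libraries labelled shCDK12 with OHT. TRIM21, an antibody receptor with ubiquitin ligase activity, was at 63.2, 58.9 and 55.1 CPM in shNT, 53.3, 53.6 and 58.9 with OHT, 56.5, 52.7 and 51.6 in the libraries labelled shCDK12 and 82.5, 97.5 and 105 in the shCDK12-labelled libraries with OHT. Only the last group stood apart, above all 9 other libraries, and TRIM21 was higher there than in the libraries labelled shCDK12 (0.83 ± 0.10, adjusted p = 4.95e-06), shNT with OHT (0.79 ± 0.14, adjusted p = 0.00105) and shNT (0.67 ± 0.10, adjusted p = 1.09e-06). IFIT1, which binds foreign RNA ends, was at 4.40, 5.35 and 5.74 CPM in the libraries labelled shCDK12 and 12.8, 11.3 and 15.6 in the shCDK12-labelled libraries with OHT, a 2.50-fold rise (1.32 ± 0.22, adjusted p = 7.18e-05). In shNT it was at 4.45, 5.27 and 2.51 CPM and with OHT at 8.77, 3.30 and 1.45, the widest spread of any group. Its call between both groups with OHT (1.50 ± 0.46, adjusted p = 0.0215) was lost without shNT_OHT replicate 2 or 3 or shCDK12_OHT replicate 1 or 3, and the log2 fold change was 2.73 without shNT_OHT replicate 1 and 0.87 without replicate 3. IFIT1 entered that fit through the libraries labelled shCDK12 with OHT (mean normalized count 23.3 in shNT with OHT), so the value is given as a description.

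IFIT5, a relative of IFIT1, was called lower in all 3 comparisons of libraries labelled shCDK12 with shNT. It was at 134, 145 and 166 CPM in shNT, 173, 242 and 231 with OHT, 109, 104 and 106 in the libraries labelled shCDK12 and 96.4, 103 and 109.9 in the shCDK12-labelled libraries with OHT. All 6 libraries labelled shCDK12 lay below all 6 of shNT. IFIT5 was lower without OHT (-0.48 ± 0.10, adjusted p = 2.74e-04) and with OHT (-1.04 ± 0.14, adjusted p = 2.31e-04), and its rise with OHT in shNT (0.53 ± 0.15, adjusted p = 0.0264) was lost without shNT replicate 1 or 2 or shNT_OHT replicate 3 (0.46 to 0.69). IFIT2 (1.02 ± 0.30, adjusted p = 0.00816) and IFIT3 (0.57 ± 0.18, adjusted p = 0.0139) rose with OHT in the libraries labelled shCDK12, the IFIT3 call being lost in a fit of all 12 libraries and without shCDK12 replicate 3 or shCDK12_OHT replicate 2 (0.48 to 0.70). IFIT2 had 10, 30 and 20 counts in the libraries labelled shCDK12 and 37, 89 and 27 in those with OHT. It passed the filter in this 1 fit, through the group with OHT, and was not tested without shCDK12_OHT replicate 1 or 2, at equal depth or in a fit of all 12 libraries. The levels of IFIT2 and IFIT3 with OHT were 6.13 ± 2.02 and 14.1 ± 0.778 CPM. The 4 IFIT genes overlap the annotated span of LIPA, which was called higher in the libraries labelled shCDK12 than in shNT (0.74 ± 0.24) and changed by -0.05 ± 0.17 with OHT in them, not called. ISG20, an RNA exonuclease, was higher in the libraries labelled shCDK12 than in shNT (8.43 ± 1.42 against 4.52 ± 1.24 CPM, log2 fold change 0.99 ± 0.32, adjusted p = 0.0102), a call lost without shNT replicate 2 (0.73). It entered that fit through the libraries labelled shCDK12 (mean normalized count 23.3 in shNT), so the value is given as a description.

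IFI35, a partner of the interferon-induced protein NMI, was at 1.64, 2.54 and 1.50 CPM in shNT and at 11.3, 6.60 and 5.80 with OHT, 12.0, 7.98 and 10.4 in the libraries labelled shCDK12 and 6.79, 7.99 and 8.71 in the shCDK12-labelled libraries with OHT. Its 3 shNT libraries lay below all others, but it passed the filter in none of the 3 fits against shNT. IFI6, a mitochondrial inhibitor of cell death, lay at group means of 2.01 to 7.07 CPM, and was tested only for OHT in the libraries labelled shCDK12 (-0.20 ± 0.25, not called).

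The remaining 14 members were tested in no fit, with at most 73 counts in a library. IRF9, the DNA-binding part of the ISRE complex, was listed at 0 counts in all 12 libraries. Whether the counting assigned its reads was not tested, so this 0 is not read as a level. BST2, which tethers virus particles, had 1 count in all and IFI27 had 6. ISG15, a ubiquitin-like protein, had 4, 6 and 4 counts in the shNT libraries, 0 in each of those with OHT, 5, 22 and 5 in those labelled shCDK12 and 20, 43 and 19 in the shCDK12-labelled libraries with OHT. Set against the 3 counts that a group at 0 allows, ISG15 pooled over the libraries labelled shCDK12 with OHT stood 9.18-fold above the limit in shNT with OHT, the group with the lowest totals. This covers the counting error of the group at 0. It leaves out the counting error of the 82 counts in the other group and the spread between libraries, so it is a description. OAS2 had 0 counts in each shNT library with OHT and 7, 14 and 12 in the shCDK12-labelled libraries with OHT, 3.69-fold above the limit by the same measure. IFI44 likewise had 0 counts in all 3 shNT libraries with OHT, and 5, 13 and 4 in the shCDK12-labelled libraries with OHT. DDX60, a helicase of the RIG-I pathway, was at 5.86, 5.66 and 8.02 CPM in shNT and 0.313, 4.12 and 0.580 with OHT. It was at 1.85, 2.10 and 1.30 in the libraries labelled shCDK12 and 2.99, 2.76 and 3.45 in those with OHT. IRF7, the amplifier of interferon production, was at 7.50, 4.49 and 8.02 CPM in shNT and 5.95, 2.47 and 3.48 with OHT. It was at 3.47, 2.10 and 3.15 in the libraries labelled shCDK12 and 1.77, 0.856 and 1.81 in those with OHT. Group means of GBP1, GBP2, OASL, OAS1, MX1 and IFI44L ran from 0.174 to 7.25 CPM. At these counts differences were not testable by the filter used.

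Against shNT without OHT, the libraries labelled shCDK12 with OHT were higher for HLA-B (1.10 ± 0.09, adjusted p = 5.55e-12), B2M (1.16 ± 0.09, adjusted p = 3.55e-12) and HLA-C (0.52 ± 0.12, adjusted p = 7.21e-04, 0.40 and not called at equal depth). TAP1 (0.74 ± 0.15, adjusted p = 8.46e-05), STAT2 (0.48 ± 0.11, adjusted p = 5.73e-04) and IFIT1 (1.57 ± 0.27, adjusted p = 1.07e-05) were also higher there. IFIT1 entered this fit through the libraries with OHT (mean normalized count 23.6 in shNT), so its value is given as a description. PARP9 (-0.79 ± 0.15, adjusted p = 5.46e-05), DTX3L (-0.56 ± 0.08, adjusted p = 1.50e-06), TAP2 (-0.66 ± 0.11, adjusted p = 3.55e-06) and IFIT5 (-0.51 ± 0.09, adjusted p = 6.71e-06) were lower. The IRF1 call in this comparison, given above, was lost in a fit of all 12 libraries (-0.43 to -0.27 over the alternatives).

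Whether OHT did the same in both shRNA backgrounds was tested by the interaction, the log2 response to OHT in the libraries labelled shCDK12 minus that in shNT, in 1 fit of all 12 libraries. Of 23 members tested 10 were called higher (43.5%) and 3 lower (13.0%), where 25.6% of all genes were called higher and 19.6% lower. Members' median was 0.64 and that of all genes 0.10, and the members' median was 0.42 without shNT_OHT replicate 3 and 0.25 at equal depth. Upper-quartile scaling moved the median of all genes to -0.02 and the members' split to 8 higher and 5 lower, with 2479 higher and 2777 lower over all genes (2994 and 2295 otherwise). PARP9 had the largest positive value (2.21 ± 0.36, adjusted p = 5.62e-05), followed by TAP1 (2.12 ± 0.33, adjusted p = 3.44e-05), IRF2 (1.90 ± 0.32, adjusted p = 7.52e-05), PARP14 (1.76 ± 0.20, adjusted p = 1.01e-06), DTX3L (1.41 ± 0.19, adjusted p = 4.92e-06) and STAT2 (1.38 ± 0.23, adjusted p = 5.92e-05). TRIM21 also passed (0.92 ± 0.18, adjusted p = 3.85e-04). OAS3 (1.34 ± 0.49, adjusted p = 0.0326), EIF2AK2 (0.69 ± 0.25, adjusted p = 0.0269) and RIGI (0.67 ± 0.23, adjusted p = 0.0243) passed as well. OAS3 entered this fit through the groups other than shNT with OHT (mean normalized count 30.1 there), so its value is given as a description. The OAS3 call was lost without shNT replicate 1 or 2, shNT_OHT replicate 1, shCDK12 replicate 1 or shCDK12_OHT replicate 2 or 3 (0.85 to 2.02 over the alternatives). That of EIF2AK2 was lost with upper-quartile scaling and without shNT replicate 1 or 3, shNT_OHT replicate 3, shCDK12 replicate 1 or 3 or shCDK12_OHT replicate 3 (0.54 to 0.99). That of RIGI was lost with upper-quartile scaling, without a filter, at equal depth and without shNT replicate 1 or 2, shCDK12 replicate 2 or 3 or shCDK12_OHT replicate 1 (0.41 to 0.75). IFI35 (-2.36 ± 0.48, adjusted p = 5.23e-04), HLA-B (-2.11 ± 0.17, adjusted p = 8.36e-09) and IFIT5 (-0.58 ± 0.17, adjusted p = 0.0106) were negative. IFI35 had 7, 13 and 3 counts in the shNT libraries and entered this fit through the other groups. It was not tested at equal depth or without shCDK12_OHT replicate 2, so its value is given as a description. PARP9, TAP1, IRF2 and OAS3 were not tested at equal depth in the interaction either.

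In that fit the response to OHT had point estimates of opposite sign in the 2 backgrounds, called or not, for 20 of 23 members (87.0%) and for 8252 of all 11699 genes (70.5%). Of the 20, 11 had a negative estimate in shNT and a positive one in the libraries labelled shCDK12, and 9 the reverse. Several estimates were near 0, such as those of B2M and TAP2, and 4 members (PARP9, PARP14, DTX3L and HLA-B) were called in both backgrounds in the pairwise fits, all 4 in opposite directions. The share of opposite directions among all genes called in both backgrounds was not computed, so this count is a description. The 2 responses share no library but 1 scaling, and their correlation across genes was -0.64 over the 23 members and -0.59 over all genes, given as a description.

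**Figure D4:**
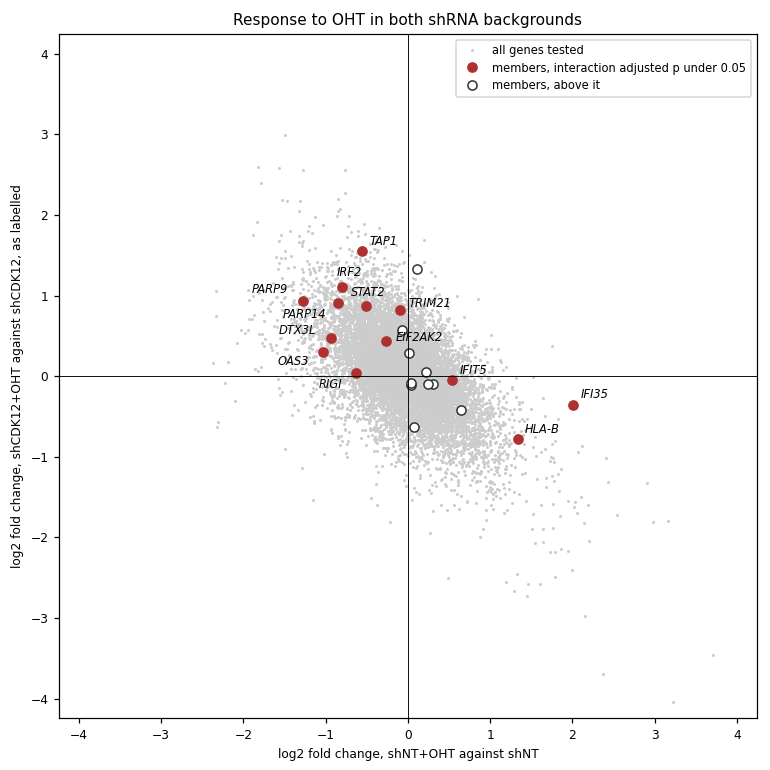
Log2 response to OHT in shNT (horizontal) against that in the libraries labelled shCDK12 (vertical), from 1 fit of 12 libraries; grey points are all 11699 genes tested and large points the 23 members, filled where the interaction passed. Most filled points lie in the upper left, and HLA-B, IFI35 and IFIT5 in the lower right.

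Other genes of the pathway were counted from lists, and the genes named from them are the called genes with the largest rise or fall in a comparison. The 8 interferon genes themselves summed to between 0.940 and 4.12 CPM in a library and none passed the count filter in any fit. Of 16 receptors, kinases and regulators, 2 were called, both lower, of 14 tested with OHT in shNT (all genes: 9.05% higher, 8.29% lower). In the libraries labelled shCDK12 against shNT, 2 were higher and 9 lower of 15 (all genes: 29.6% and 32.4%). With OHT in the libraries labelled shCDK12, 9 were higher and 1 lower of 15 (all genes: 27.5% and 21.5%). Between both groups with OHT, 3 were higher and 3 lower of 14 (all genes: 23.8% and 21.6%). In the libraries labelled shCDK12 with OHT against shNT, 4 were higher and 7 lower of 14 (all genes: 28.4% and 27.3%). In the interaction, 7 were higher and 1 lower of 15 (all genes: 25.6% and 19.6%). SOCS1, which inhibits JAK kinases, had the largest rise by the label without OHT (log2 fold change 1.99) and the largest fall with OHT in those libraries (-1.47). IL10RB, a receptor chain for lambda interferons, had the largest fall by the label (-1.92), and its partner IFNLR1 the largest rise with OHT in those libraries (1.30), between both groups with OHT (1.13) and in the interaction (1.79), where SOCS1 was the lowest (-2.06). The phosphatases PTPN11 (-0.55, both groups with OHT) and PTPN2 (0.94, shCDK12 with OHT as labelled against shNT) and IL10RB (-0.87, the same) were the other extremes. IFNAR1, a chain of the type I receptor, fell most with OHT in shNT (-0.62).

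Of 21 further genes of nucleic acid sensing, 2 were called, both lower, of 13 tested with OHT in shNT (all genes: 9.05% higher, 8.29% lower). By the label without OHT, 1 was higher and 7 lower of 15 (all genes: 29.6% and 32.4%). With OHT in the libraries labelled shCDK12, 10 were higher and 1 lower of 16 (all genes: 27.5% and 21.5%). Between both groups with OHT the counts were 4 higher and 2 lower of 16 (all genes: 23.8% and 21.6%). Against shNT without OHT they were 6 and 5 of 16 (28.4% and 27.3%), and in the interaction 8 and 1 of 15 (25.6% and 19.6%). MAVS, the adaptor through which RIG-I and MDA5 signal, fell most with OHT in shNT (-0.82) and in the libraries labelled shCDK12 (-2.43 without OHT, -1.14 with it, against shNT). SAMHD1, which depletes nucleotides, rose most by the label without OHT (1.77). TLR3, a receptor for double-stranded RNA, rose most with OHT in the libraries labelled shCDK12 (1.48) and was highest there against shNT (1.78). RNASEH2C, a subunit of RNase H2, had the largest fall with OHT in the libraries labelled shCDK12 (-0.62), between both groups with OHT (-1.03) and in the interaction (-0.97).

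Of 42 further interferon-stimulated genes, 3 were called, all lower, of 19 tested with OHT in shNT (all genes: 9.05% higher, 8.29% lower). By the label without OHT, 2 were higher and 9 lower of 24 (all genes: 29.6% and 32.4%). With OHT in the libraries labelled shCDK12, 14 were higher and 2 lower of 26 (all genes: 27.5% and 21.5%). Between both groups with OHT they were 10 higher and 1 lower of 25 (all genes: 23.8% and 21.6%). Against shNT without OHT they were 7 and 5 of 26 (all genes: 28.4% and 27.3%). In the interaction they were 17 and 1 of 25 (all genes: 25.6% and 19.6%), with a median of 1.13 (0.10 over all genes). SAMD9, an antiviral factor, fell most with OHT in shNT (-1.53) and was highest between both groups with OHT (3.23), in the libraries labelled shCDK12 with OHT against shNT (1.69) and in the interaction (3.01). TRIM22 (1.07) and LGALS3BP (-1.83) were the extremes by the label without OHT, APOL1 rose most with OHT in the libraries labelled shCDK12 (1.55), and PLSCR1 fell most in those with OHT against shNT (-0.67). TRIM14, an adaptor of MAVS signalling, fell most with OHT in the libraries labelled shCDK12 (-0.85), between both groups with OHT (-1.13) and in the interaction (-1.33). The 42 genes summed to 1148 to 1236 CPM in shNT, 875 to 916 with OHT, 1051 to 1068 in the libraries labelled shCDK12 and 1627 to 1648 in the shCDK12-labelled libraries with OHT.

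Of 23 further genes of antigen presentation, 2 were called higher and 1 lower of 12 with OHT in shNT (all genes: 9.05% and 8.29%). By the label without OHT they were 5 and 5 of 16, close to the shares of all genes (29.6% and 32.4%). With OHT in the libraries labelled shCDK12 they were 5 and 3 of 18 (all genes: 27.5% and 21.5%). Between both groups with OHT the counts were 4 and 2 of 15 (all genes: 23.8% and 21.6%). Against shNT without OHT they were 4 and 4 of 18 (all genes: 28.4% and 27.3%). In the interaction they were 4 and 3 of 16 (all genes: 25.6% and 19.6%), with a median of 0.01 (0.10 over all genes). HLA-E, a class I chain read by natural killer cells, rose most in the libraries labelled shCDK12 (1.02) and in those with OHT (1.03) against shNT. RFX5, which binds the promoters of these genes, fell most with OHT in shNT (-1.01) and by the label (-1.46) and had the largest interaction (2.08). PSMB10, an immunoproteasome subunit, rose most with OHT in shNT (0.64) and fell most with it in the libraries labelled shCDK12 (-0.94), between both groups with OHT (-1.18), against shNT (-0.55) and in the interaction (-1.58). MR1, which presents vitamin metabolites, rose most with OHT in the libraries labelled shCDK12 (1.18), and RFXAP, a partner of RFX5, between both groups with OHT (1.15).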

How the data were processed

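EU-seq was measured in 12 libraries of U2OS-MycER cells. The authors deposited raw counts for 23434 genes by Entrez identifier; their processing notes name STAR 2.7.5c, featureCounts 1.4.5-p1 and hg19, and the strand setting is not given in the sources used here. Symbols came from RefSeq for 23284 genes. The counts were analysed in edgeR 4.0.16 (R 4.3.3) with TMM, a mean normalized count above 32, quasi-likelihood tests and p-values adjusted by Benjamini-Hochberg over all genes tested, in 5 pairwise fits of 6 libraries and 1 interaction fit of 12. The script was tested on simulated data. Totals were lowest in shNT with OHT (1251695 to 3666406 counts). Folds above the limit of a group at 0 cover the counting error of that group only. All 40 members are named, with statistics for calls; from each further list the called genes with the largest rise or fall are given, and 1 such gene is not reported here. The members and lists were chosen with earlier results of these data known. Whether replicate numbers pair the libraries was not settled. Same-numbered libraries' deviations correlated between -0.092 and 0.307 (median 0.029), with 2 of 18 over 0.1. Different-numbered ones correlated between -0.346 and 0.0996 (median -0.017), with 0 of 36 over 0.1. The main fits took the libraries as unpaired. Replicates of a group differed by more than sampling noise (chi-square per degree of freedom 2.78 to 9.93). Alternatives were DESeq2 1.42.0, upper-quartile scaling, other filters, thinning to equal depth, a replicate block, omitting each library in turn and fitting all libraries together.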

Additional observations from a re-analysis of the deposited data

Results flagged for a closer look

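For 13 of 23 members tested OHT had a different effect in the libraries labelled shCDK12 than in shNT, by the edgeR quasi-likelihood test of the interaction (43.5% higher and 13.0% lower, against 25.6% and 19.6% of all genes). This holds as labelled, and an exchange of the labels with and without OHT in the shCDK12 groups was not tested. The difference (log2 response in the libraries labelled shCDK12 minus that in shNT) was 2.21 for PARP9, 2.12 for TAP1, 1.90 for IRF2, 1.76 for PARP14, 1.41 for DTX3L, 1.38 for STAT2, 1.34 for OAS3, 0.92 for TRIM21, 0.69 for EIF2AK2 and 0.67 for RIGI. It was -2.36 for IFI35, -2.11 for HLA-B and -0.58 for IFIT5. IFI35 had 7, 13 and 3 counts in the shNT libraries and passed the filter through the other groups, as OAS3 did outside shNT with OHT. The calls of OAS3, EIF2AK2 and RIGI were lost in 6 to 8 alternatives each. PARP9, TAP1, IRF2, OAS3 and IFI35 were not tested at equal depth. Groups of 3 libraries were not searched for outlying values, and the effect of leaving out each library is given with the results.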

How the results depend on the processing

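Of 70 member calls, 53 kept their call and sign in every alternative that tested them, 17 lost the call in at least 1, 9 of these in an alternative that left out no library, and 0 changed sign. With OHT in shNT 5 members were called, and 8 without a filter on low counts, 9 in 1 fit of all 12 libraries, and 3 to 7 when a library was left out (3 without shNT replicate 1). The cause was not tested. Thinned to the smallest total (1251695 counts), 8 members instead of 13 were called for the libraries labelled shCDK12 against shNT, 8 instead of 15 for OHT in the libraries labelled shCDK12, 6 instead of 10 between both groups with OHT, and 7 instead of 13 in the interaction, with 13 or 14 members passing the filter. With the replicate block the members called were 5, 13, 15, 9, 14 and 13 in the order of the comparisons above, and DTX3L between both groups with OHT was the 1 call lost. Over all genes, OHT in shNT gave 1782 calls, and 670 to 818 without 1 of the shNT libraries, 1101 without shNT_OHT replicate 3, and 3256 in 1 fit of all libraries; at equal depth its calls were 64.4% higher against 52.2%. At equal depth the other counts were 4483 of 7265, 3219 of 6128, 3121 of 5298, 3758 of 6667 and 3188 of 5289, and between both groups with OHT 3527 and 3520 without shCDK12_OHT replicate 1 or 2. Without a filter the median of all genes moved to 0.12 for the libraries labelled shCDK12 against shNT and to 0.21 between both groups with OHT.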
